A study of Mus musculus with 14 samples.

Results

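The INK4 family of cell cycle inhibitors, the genes Cdkn2a, Cdkn2b, Cdkn2c and Cdkn2d, was measured on 14 Agilent 1-colour arrays of early T cells from the mouse thymus. The members were chosen by gene name and by no rule on their values, but with earlier results of these data known. All 4 genes were found, of 21378 genes that the array names, with 6 of the 55681 non-control probes of the array: 2 probes each for Cdkn2a and Cdkn2b and 1 probe each for Cdkn2c and Cdkn2d. The scanner files name probes by transcript accession rather than by gene symbol, so the members were found through the accessions that the RefSeq gene table gives to these symbols. All 6 probes passed the filter on dim probes and were among the 31415 tested, but 4 of them passed it through the groups in which they were bright.

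INK4 proteins bind the kinases CDK4 and CDK6 and keep them from pairing with D cyclins, so that the retinoblastoma protein stays unphosphorylated and holds E2F transcription factors in check. Cdkn2a and Cdkn2b lie side by side, and Polycomb repressive complexes, including the methyltransferase Ezh2, are known for silencing them in stem and progenitor cells. Cdkn2a encodes a pair of unrelated proteins from separate first exons: p16INK4a, a CDK4 and CDK6 inhibitor, and p19ARF, which binds Mdm2 and so protects p53 from degradation. p53 is in turn known to repress ARF. Cdkn2a is often lost in T cell leukemia, and Cdkn2c and Cdkn2d are the INK4 genes usually expressed in normal thymocytes.

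The groups were ETP-ALL, Ezh2 and p53 double-deleted (labelled Ezh2Δ/Δp53Δ/Δ), p53-deleted (p53Δ/Δ), Ezh2-deleted (Ezh2Δ/Δ) and WT. Donor bone marrow on a C57BL/6 background carried Cre-ERT2, a Cre recombinase that tamoxifen activates, in every group including WT, together with floxed Ezh2, floxed p53 (the gene Trp53), both or neither. Lethally irradiated recipients, wild-type and CD45.1+, received this marrow, deletion followed 4 weeks later, and the non-leukemic cells were sorted from the thymus 3 months after transplantation. They were CD4-CD8- (double-negative, DN) thymocytes of 3 successive stages: DN1, which are CD44+CD25-, then DN2, which carry both markers, and then DN3, which are CD44-CD25+. Each of the 4 genotypes had 1 array per stage, so a genotype had 3 arrays and a stage had 4. The ETP-ALL group, early T cell precursor leukemia, held DN2-gated leukemic cells of 2 double-deleted mice (mouse 13 and mouse 19), 1 array each. Cre-ERT2 was not restricted to T cells by the design, and the labels give no age of the mice. Nothing in the labels says that the stages of 1 genotype came from different mice, so p-values between genotypes measure agreement over 3 stages and may reflect technical spread only. All groups were bulk sorted cells, in which a change in the share of cells that express a gene and a change in the amount per cell cannot be told apart.

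The promoters of Cdkn2a and Cdkn2b are shown because these genes moved together, and that of Cdkn2d because it passed no test. Each is the 250 bases before a start site, from RefSeq on GRCm38.p6, written 5′ to 3′ on the minus strand on which all 4 genes lie, with CG dinucleotides in capitals. The first Cdkn2a window precedes the upstream start, that of the ARF first exon. It holds 40 CG dinucleotides, more than 98.7% of the 32851 windows of this length in the table.
Cdkn2a upstream start, chr4:89294620-89294869: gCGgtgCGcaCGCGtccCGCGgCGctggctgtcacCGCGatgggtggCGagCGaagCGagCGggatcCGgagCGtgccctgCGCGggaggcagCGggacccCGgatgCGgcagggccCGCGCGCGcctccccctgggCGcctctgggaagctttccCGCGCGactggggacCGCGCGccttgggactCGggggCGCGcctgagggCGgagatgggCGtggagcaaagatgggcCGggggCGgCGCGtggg
Cdkn2a downstream start, chr4:89282193-89282442: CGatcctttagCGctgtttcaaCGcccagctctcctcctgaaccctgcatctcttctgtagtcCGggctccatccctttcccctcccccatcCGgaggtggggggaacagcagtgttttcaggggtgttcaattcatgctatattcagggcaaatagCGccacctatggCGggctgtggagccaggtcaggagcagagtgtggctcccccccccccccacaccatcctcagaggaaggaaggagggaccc
Cdkn2b, chr4:89311033-89311282: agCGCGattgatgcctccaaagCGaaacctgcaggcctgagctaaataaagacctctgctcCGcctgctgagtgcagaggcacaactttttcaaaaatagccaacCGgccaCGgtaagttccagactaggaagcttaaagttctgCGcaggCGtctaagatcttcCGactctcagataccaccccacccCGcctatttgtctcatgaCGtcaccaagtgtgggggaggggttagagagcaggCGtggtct
Cdkn2d, chr9:21291210-21291459: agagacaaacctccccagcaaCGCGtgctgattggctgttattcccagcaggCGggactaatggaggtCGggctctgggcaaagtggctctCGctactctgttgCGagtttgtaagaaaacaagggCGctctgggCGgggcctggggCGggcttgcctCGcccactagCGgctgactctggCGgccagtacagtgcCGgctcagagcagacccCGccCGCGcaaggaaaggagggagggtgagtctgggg
The downstream Cdkn2a start, that of the p16INK4a first exon, has 7 CG dinucleotides and Cdkn2b has 12, against a median of 6 over all windows. The window of Cdkn2d has 16. 4 short motifs were searched on both strands in all windows. The E2F motif TTTCCCGC is found in 0.89% of all windows and, among the 6 member windows, only before the upstream Cdkn2a start, where the match begins 99 bases before it. The other E2F motif searched, TTTGGCGC, is in 0.42% of all windows and in none of the 6. GGGCGG is in 32.74% of all windows and in 3 of the 6, those of the upstream Cdkn2a start, the upstream Cdkn2c start and Cdkn2d. TATAAA is in 12.37% of all windows and in none of the 6. The probe sequences were not used here, and which Cdkn2a transcript each probe reads was not determined, so p16INK4a and p19ARF are not separated in any value below.

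Levels are given as log2 of the processed signal minus the 75th percentile of the array, so that a probe at that percentile stands at 0. A probe whose signal did not pass the scanner's own test is called not well above background. On the arrays, 40.3% to 50.4% of probes passed it, and 0 probes were saturated. The 75th percentile itself lay between 70.3 and 141 signal units on the 6 arrays of slide 2, which held all Ezh2-deleted and p53-deleted cells, and between 298 and 591 on the other 8. Slide 1 held WT cells and double-deleted DN2 and DN3 cells, slide 3 double-deleted DN1 cells, and slide 4 the leukemias. For Trp53, the double-deleted DN1, DN2 and DN3 arrays stood at -4.03, -2.59 and -0.67, all well above background. The p53-deleted arrays stood at -3.70, -5.57 and -5.01 and none was well above background, against -0.01, 0.87 and 1.12 on the WT arrays. The probe of Ezh2 stood at 2.56, 3.69 and 3.52 in Ezh2-deleted cells and at 2.23, 4.0 and 4.26 in WT cells, and where it lies relative to the deleted part was not determined. Xist, which coats the inactive X chromosome of females, passed the background test on the 3 Ezh2-deleted arrays and no other, where alone Uty, Eif2s3y and Ddx3y, genes of the Y chromosome, were not well above background. Each comparison with Ezh2-deleted cells carries that difference too, and its part in the results was not tested.

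The cells carried the thymocyte markers of their label: at least 12 of 13 DN thymocyte markers, such as Cd3e, Rag1 and Notch1, were well above background on every array. Markers of other cells were present as well. The summed level of 6 dendritic cell markers (linear, with the 75th percentile as 1) lay between 232 and 258 in double-deleted cells, 163 and 204 in p53-deleted cells, and 145 and 197 in Ezh2-deleted cells, against 367 and 435 in WT cells, with 2 to 5 of the 6 well above background. Of these, Siglech stood between 7.73 and 7.85 on the log2 scale in double-deleted cells, 6.79 and 7.30 in p53-deleted cells, and 6.4 and 6.88 in Ezh2-deleted cells, against 8.33 and 8.71 in WT cells. Bst2 did not share this order, at 3.82 to 4.71, 5.53 to 5.77 and 5.5 to 6.42, against 3.79 to 5.47 in WT cells. On the DN3 arrays of WT, p53-deleted and Ezh2-deleted cells, Siglech and Bst2 were the only dendritic cell markers well above background. Double-deleted DN3 cells added Flt3 and Zbtb46, and Itgax passed on no DN3 array. Whether these sums reflect dendritic cells was not tested. The sum of 6 B cell markers lay between 3.93 and 6.98 in double-deleted cells, 4.26 and 5.33 in p53-deleted cells, and 20.1 and 46.5 in Ezh2-deleted cells, against 8.08 and 11.6 in WT cells. In Ezh2-deleted DN2 and DN3 cells Cd79b, at 4.31 and 4.76 on the log2 scale, was the only one of them well above background. Sums of 6 myeloid markers were 30.7 to 53.1, 16.9 to 24.5 and 19.7 to 96.5 in the deleted genotypes in this order. In WT cells they were 45.0 to 108. The p53-deleted sums lay below all those of double-deleted and WT cells, while double-deleted, Ezh2-deleted and WT cells overlapped. For 6 erythroid markers the sums were 2.75 to 8.90, 1.05 to 3.09 and 2.89 to 26.8, against 1.00 to 30.5 in WT cells, with 1 to 4 of the 6 well above background. For 7 markers of thymic stroma they were 0.889 to 1.69, 1.1 to 1.54 and 1.20 to 2.24, against 1.13 to 1.67, with 1 to 4 of the 7. Of the defining markers, Gata1 (erythroid cells) and Pecam1 (endothelium) were well above background on all 14 arrays, and Xcr1 (dendritic cells), Alas2 (erythroid cells) and Foxn1 and Krt8 (thymic epithelium) on none. The number of NK and innate lymphoid markers well above background fell with stage, from 8 of 8 on all DN1 arrays to 2 or 3 of 8 in DN3 cells. Their sums were 387 to 693 in DN1 and 210.1 to 561.5 in DN3 cells, and most of each was Gzma. Gzma stood at 8.88, 8.85 and 9.13 on the log2 scale in DN1, DN2 and DN3 cells of the Ezh2-deleted genotype. In the same order it stood at 8.02, 5.74 and 7.93 in WT, 8.80, 7.06 and 8.24 in p53-deleted, and 9.24, 7.70 and 7.71 in double-deleted cells. The part of any other cell types in the results below was not tested.

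Cdkn2a was the member that differed most between genotypes. With its brighter probe (A_55_P2008437), the log2 level in DN1, DN2 and DN3 cells was 5.28, 5.24 and 4.60 in double-deleted, 6.35, 6.18 and 6.41 in p53-deleted and 0.87, 2.54 and 2.24 in Ezh2-deleted cells. In WT cells it was -3.17, -5.44 and -3.61, and only the DN1 array was well above background. The 4 genotypes did not overlap: every p53-deleted array was above every double-deleted one, these were above every Ezh2-deleted one, and WT was lowest. Means over the stages were 5.04 ± 0.39 in double-deleted, 6.31 ± 0.12 in p53-deleted and 1.88 ± 0.89 in Ezh2-deleted cells, against -4.07 ± 1.20 in WT cells (SD, n = 3 each).

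**Figure D1:**
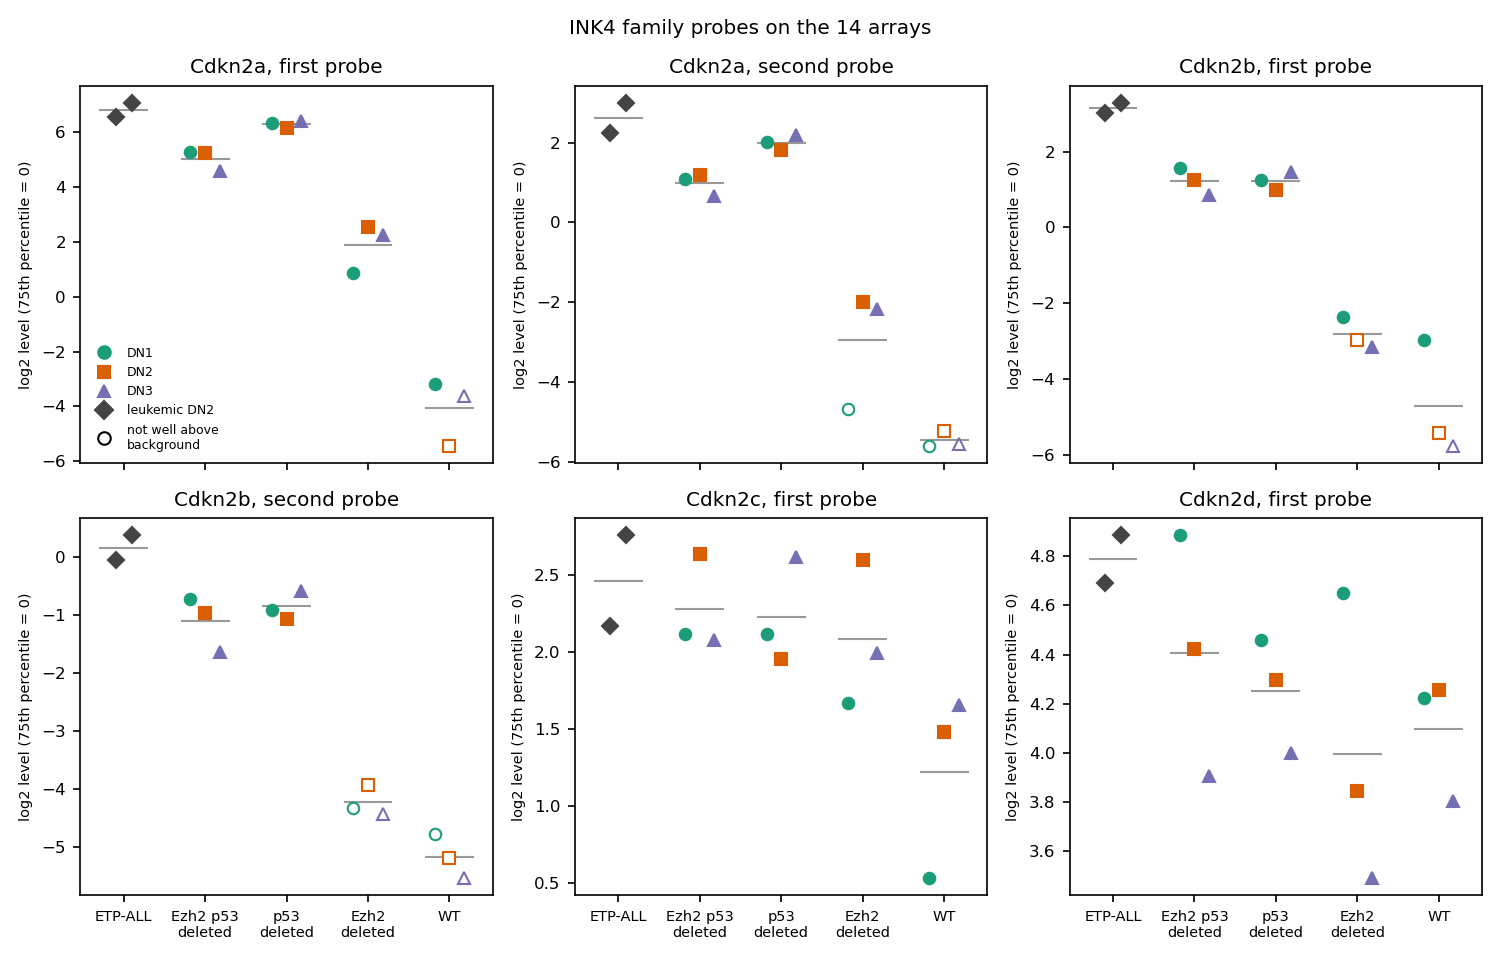
Log2 level of each INK4 probe (75th percentile of the array = 0) on all 14 arrays, by group; each point is 1 array, the shape and colour give the stage, open points are not well above background, and grey lines are group means. The Cdkn2a and Cdkn2b panels step down from double-deleted and p53-deleted to Ezh2-deleted and WT arrays, while the Cdkn2d panel spans only 3.49 to 4.89 in all groups.

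The second Cdkn2a probe (A_55_P2008438) was dimmer and gave the same order. It stood at 1.09, 1.19 and 0.67 in double-deleted, 2.01, 1.80 and 2.18 in p53-deleted and -4.67, -1.98 and -2.17 in Ezh2-deleted cells, against -5.60, -5.23 and -5.56 in WT cells. No WT array and not the Ezh2-deleted DN1 array was well above background with this probe. Across the 12 non-leukemic arrays, which share slides and scaling within genotypes, Pearson's r between the 2 probes was 0.95.

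Cdkn2b, which encodes the CDK inhibitor p15INK4b, stood higher in double-deleted and p53-deleted cells than in Ezh2-deleted and WT cells. The brighter probe (A_55_P1988183) stood at 1.55, 1.25 and 0.86 in double-deleted, 1.24, 0.99 and 1.46 in p53-deleted and -2.36, -2.96 and -3.15 in Ezh2-deleted cells of the 3 stages, against -2.98, -5.43 and -5.76 in WT cells. Double-deleted and p53-deleted cells overlapped each other and stood clear of the rest, while Ezh2-deleted cells overlapped WT: the WT DN1 array lay between the Ezh2-deleted DN2 and DN3 arrays. WT DN2 and DN3 and Ezh2-deleted DN2 were not well above background. The second probe (A_55_P1979526) was not well above background on any Ezh2-deleted or WT array and stood at -0.73, -0.96 and -1.65 in double-deleted and -0.92, -1.08 and -0.59 in p53-deleted cells. Over the 12 arrays, r was 0.98 between the 2 Cdkn2b probes and 0.92 between the brighter probes of Cdkn2a and Cdkn2b.

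Cdkn2c encodes p18INK4c, an inhibitor known to restrain the division of T cell precursors. Its probe (A_55_P2074796) was well above background on all 14 arrays. It stood at 2.12, 2.63 and 2.08 in double-deleted, 2.12, 1.95 and 2.61 in p53-deleted and 1.67, 2.60 and 1.99 in Ezh2-deleted cells of the 3 stages, against 0.53, 1.48 and 1.66 in WT cells. All deleted arrays were above all WT arrays, the nearest pair being Ezh2-deleted DN1 and WT DN3, and the deleted genotypes overlapped one another. Cdkn2d, which encodes p19INK4d, a protein distinct from p19ARF, was well above background on all arrays too. Its probe (A_55_P2022251) stood at 4.89, 4.42 and 3.91 in double-deleted, 4.46, 4.30 and 4.0 in p53-deleted and 4.65, 3.84 and 3.49 in Ezh2-deleted cells, against 4.22, 4.26 and 3.81 in WT cells, and all 4 genotypes overlapped.

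Loss of Ezh2 was examined against WT cells to ask how loss of the Polycomb methyltransferase alone changes these genes. Cdkn2a rose by 5.96 ± 0.61 on the log2 scale (SE, 3 arrays against 3, adjusted p = 0.000169 in limma), which is 62.2-fold, with 1 of 3 WT arrays well above background. At DN1, where both genotypes passed the background test, Cdkn2a was 4.04 higher. The differences at DN2 and DN3, 7.98 and 5.85, rest on WT arrays that did not pass, so their size is not known. The second Cdkn2a probe was at least 1.55-fold higher (adjusted p = 0.00822). Cdkn2b rose by 1.90 ± 0.49 (adjusted p = 0.0179), with 2 of 3 Ezh2-deleted and 1 of 3 WT arrays well above background. At DN1, the only stage at which both genotypes passed the background test, it was 0.62 higher. At DN2 and DN3 the differences, 2.47 and 2.61, rest on WT levels of -5.43 and -5.76. The lowest levels that passed on those WT arrays were -3.30 and -3.76, so the size of the rise is not known there. The second Cdkn2b probe was called too (0.94, adjusted p = 0.0365). It passed the background test in neither genotype, so its change has no readable size. Cdkn2c was higher by 0.86 ± 0.31 without passing the test (adjusted p = 0.0606), and Cdkn2d differed by -0.10 ± 0.23 (adjusted p = 0.759). So 2 of the 4 members were called, both higher, where 33.2% of all probes tested were called, 15.7% higher and 17.4% lower. The call of Cdkn2b was lost without Ezh2-deleted DN2 (1.81, adjusted p = 0.0663), without Ezh2-deleted DN3 (1.87, 0.0591), without WT DN2 (1.60, 0.079) and without WT DN3 (1.46, 0.065), and the call of Cdkn2a was not. Cdkn2c passed the test without WT DN3 (1.06, adjusted p = 0.0495) and without p53-deleted DN2 (0.86, 0.0332). All Ezh2-deleted arrays were on slide 2 and all WT arrays on slide 1, so slide and deletion cannot be told apart here.

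**Figure D2:**
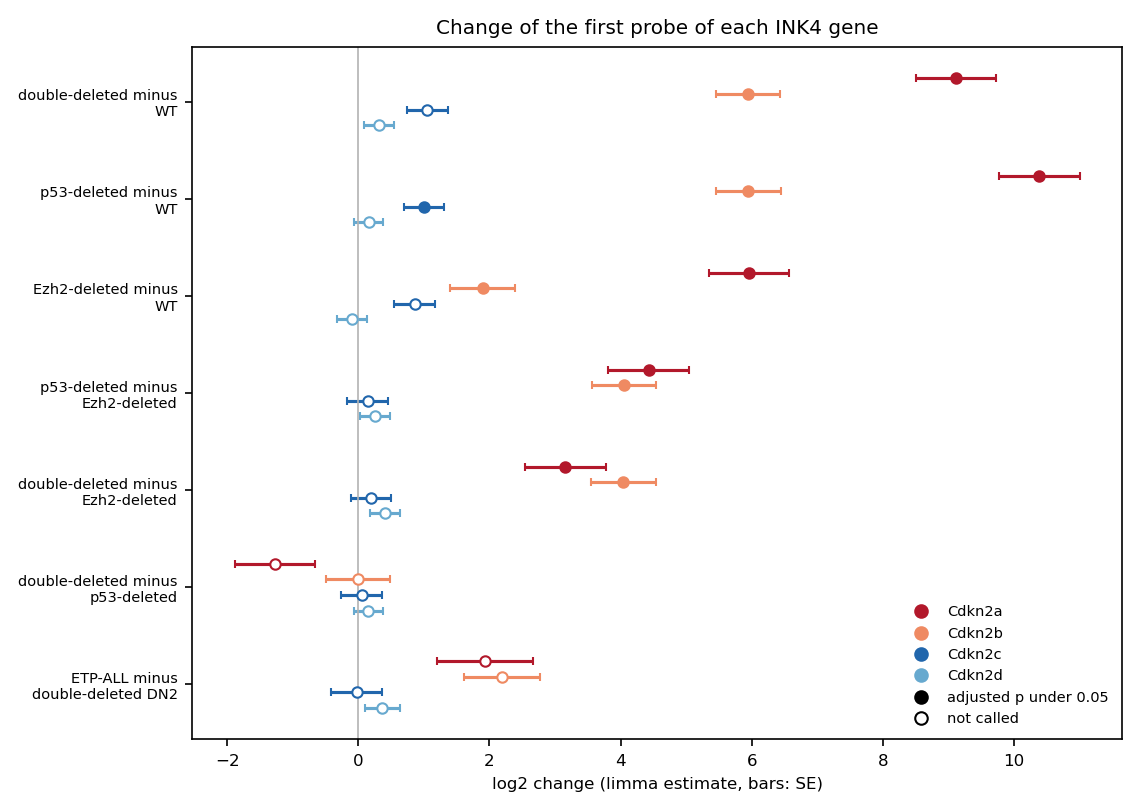
Log2 change of the brighter probe of each INK4 gene in 7 comparisons, as limma estimates (points) with standard errors (bars); filled points passed an adjusted p of 0.05. Cdkn2a changed by up to 10.39 and Cdkn2b by up to 5.95 (both p53-deleted minus WT), Cdkn2c by about 1, and no point of Cdkn2d is filled.

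Loss of p53 was examined in the same way. Cdkn2a rose by 10.39 ± 0.61 (SE, 3 arrays against 3, adjusted p = 6.02e-06 in limma), or 1341-fold against a WT level of which 1 of 3 arrays was well above background, and its second probe was at least 47.4-fold higher (adjusted p = 2.0e-05). Cdkn2b rose by 5.95 ± 0.49 (adjusted p = 4.31e-05), and its second probe was at least 6.54-fold higher (adjusted p = 1.23e-05). Cdkn2c rose by 1.00 ± 0.31 (adjusted p = 0.0336), and Cdkn2d differed by 0.16 ± 0.23 (adjusted p = 0.619), or by -0.11 with normexp background correction. These 3 calls among 4 members stand against 35.6% of all probes called, 15.9% higher and 19.6% lower. The call of Cdkn2c was lost without double-deleted DN2 (1.00, adjusted p = 0.0504), WT DN1 (0.77, 0.124), WT DN2 (1.03, 0.0869), p53-deleted DN1 (0.85, 0.107) or p53-deleted DN3 (0.83, 0.118). Those of Cdkn2a and Cdkn2b were kept without any 1 array, and here too slide and deletion cannot be told apart.

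Double-deleted cells, of the genotype of the leukemias, were compared with WT cells. Cdkn2a rose by 9.12 ± 0.61 (SE, 3 arrays against 3, adjusted p = 0.000208 in limma), or 555-fold, with 1 of 3 WT arrays well above background here and for the brighter probe of Cdkn2b, and its second probe was at least 23.4-fold higher (adjusted p = 0.000456). Cdkn2b rose by 5.94 ± 0.49 (adjusted p = 0.000407), 61.5-fold, and its second probe was at least 5.47-fold higher (adjusted p = 0.000259). The changes of Cdkn2c, 1.05 ± 0.31 (adjusted p = 0.0735), and Cdkn2d, 0.31 ± 0.23 (adjusted p = 0.418), did not pass the test. Thus 2 of 4 members were called, while 7.01% of all probes were called, 3.58% higher and 3.43% lower. On slide 1 lay DN2 and DN3 cells of both genotypes, and neither WT array was well above background for these probes. Within that slide Cdkn2a was at least 332-fold higher (adjusted p = 0.0256) and Cdkn2b at least 24.0-fold (adjusted p = 0.0213) in double-deleted cells. Cdkn2c passed the test when p53-deleted DN2 was left out (1.05, adjusted p = 0.0492).

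The comparison of p53-deleted with Ezh2-deleted cells lay within slide 2 throughout. Cdkn2a was higher in p53-deleted cells by 4.43 ± 0.61, 21.6-fold (SE, 3 arrays against 3, adjusted p = 0.00709 in limma), and Cdkn2b by 4.05 ± 0.49, 16.6-fold (adjusted p = 0.00427). The second probe of Cdkn2a was higher by 4.94 ± 0.55 (adjusted p = 0.00296) and that of Cdkn2b at least 5.81-fold (adjusted p = 0.000929). Cdkn2c differed by 0.14 ± 0.31 (adjusted p = 0.843) and Cdkn2d by 0.26 ± 0.23 (adjusted p = 0.588). The 2 called members stand against 3.83% of all probes, 1.61% higher and 2.22% lower in p53-deleted cells. From a fit of the 6 arrays of slide 2 alone, Cdkn2a gave an adjusted p of 0.038 and Cdkn2b of 0.0318. The second probe of Cdkn2a did not pass in that fit (adjusted p = 0.0556), and that of Cdkn2b did (0.0375). The difference had the same direction at each stage: for Cdkn2a it was 5.48, 3.64 and 4.17, and for Cdkn2b 3.60, 3.94 and 4.61, at DN1, DN2 and DN3. For Cdkn2b the Ezh2-deleted DN2 array was not well above background, so the size at DN2 is not known.

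Double-deleted cells differed from Ezh2-deleted cells in the same 2 genes. Cdkn2a was higher by 3.16 ± 0.61, 8.92-fold (SE, 3 arrays against 3, adjusted p = 0.00588 in limma), and Cdkn2b by 4.04 ± 0.49, 16.5-fold (adjusted p = 0.000592). For Cdkn2b, 2 of 3 Ezh2-deleted arrays were well above background. Cdkn2c differed by 0.19 ± 0.31 (adjusted p = 0.673) and Cdkn2d by 0.41 ± 0.23 (adjusted p = 0.201), so 2 of 4 members were called where 29.9% of all probes were, 13.8% higher and 16.1% lower. Against p53-deleted cells, 0 of 4 members were called in double-deleted cells with limma and 0 had an unadjusted p under 0.05, where 31.4% of all probes were called, 15.8% higher and 15.6% lower. The largest difference was that of Cdkn2a, at -1.27 ± 0.61 (adjusted p = 0.144), and it was negative at each stage, at -1.07, -0.93 and -1.81. That of its second probe was -1.02 ± 0.55 (adjusted p = 0.185) and passed the test when Ezh2-deleted DN1 was left out (-1.02, adjusted p = 0.0158). Cdkn2b differed by -0.01 ± 0.49, with stages on both sides of 0. Both comparisons set slide 2 against other slides, so slide and deletion cannot be told apart.

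Whether the effect of 1 deletion depended on the other was tested as the difference of differences, double-deleted minus p53-deleted less Ezh2-deleted minus WT. For Cdkn2a it was -7.23 ± 0.87 (SE, adjusted p = 0.000251 in limma) and for its second probe -3.54 ± 0.78 (adjusted p = 0.00594), which is -1.65 or lower when the WT level, not well above background on any of 3 arrays, is taken as a bound. For the brighter probe, this sets the change of -1.27 where p53 was deleted against 5.96 where it was present. That 5.96 rests on a WT level with 1 of 3 arrays well above background. For Cdkn2b it was -1.91 ± 0.70, which did not pass (adjusted p = 0.0518), for Cdkn2c -0.81 ± 0.44 (adjusted p = 0.16) and for Cdkn2d 0.25 ± 0.32 (adjusted p = 0.541). This contrast is also exactly slide 2 against all other slides, 44.7% of all probes passed it (20.6% higher and 24.1% lower), against 1 of 4 members, and slide and the combination of deletions cannot be told apart. Cdkn2b passed the test without WT DN1 (-2.64, adjusted p = 0.00147) or p53-deleted DN1 (-2.32, 0.028), and Cdkn2c without p53-deleted DN2 (-1.14, 0.0474).

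Over the course of DN1, DN2 and DN3, 0 of 4 members were called at either step in limma, and 0 had an unadjusted p under 0.05. From DN1 to DN2, 1.31% of all probes were called (0.172% higher and 1.14% lower), and from DN2 to DN3, 0.0255% (0.00955% higher and 0.0159% lower). From DN1 to DN2 the additive estimate was -0.20 ± 0.53 for Cdkn2a (SE, 4 arrays against 4, adjusted p = 0.847), -0.90 ± 0.43 for Cdkn2b (0.272), 0.56 ± 0.27 for Cdkn2c (0.279) and -0.35 ± 0.20 for Cdkn2d (0.339). From DN2 to DN3 these were 0.28 ± 0.53, -0.11 ± 0.43, -0.08 ± 0.27 and -0.40 ± 0.20, with adjusted p between 0.828 and 1.00. Cdkn2d was lower in DN3 than in DN2 cells of all 4 genotypes, by 0.52 in double-deleted, 0.30 in p53-deleted, 0.35 in Ezh2-deleted and 0.45 in WT cells. Cdkn1a, the p53 target and CDK inhibitor p21, rose by 2.71 ± 0.28 between DN1 and DN2 (adjusted p = 0.00221).

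**Figure D3:**
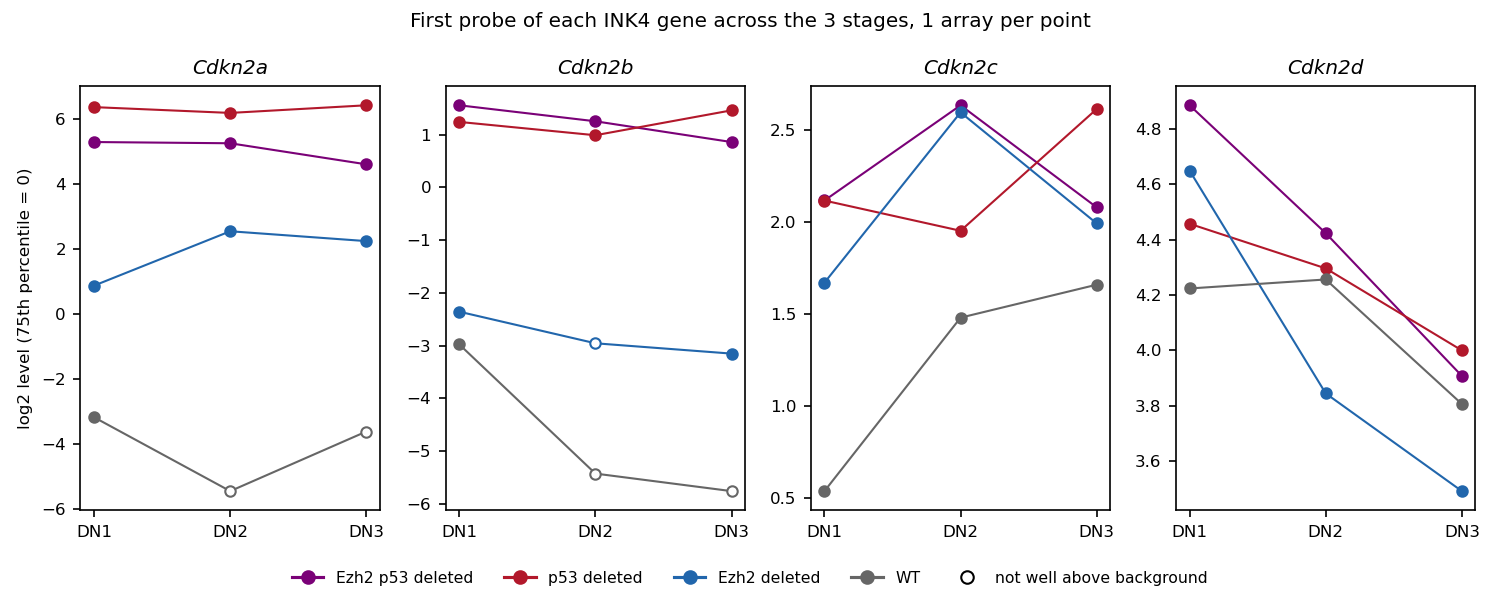
Log2 level (75th percentile of the array = 0) of the brighter probe of each INK4 gene in DN1, DN2 and DN3 cells, 1 array per point, with lines joining the stages of a genotype and open points not well above background. The Cdkn2a lines do not cross, those of Cdkn2b fall into a pair near 1 and a pair below -2, and each Cdkn2d line ends lower at DN3 than at DN1.

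The 2 leukemias were compared with double-deleted DN2 cells, the non-leukemic cells of the same genotype and gate. Cdkn2a stood at 6.55 in mouse 13 and 7.07 in mouse 19, against 5.24 in double-deleted DN2 cells. For Cdkn2b these levels were 3.02 and 3.28, against 1.25. The second probe of Cdkn2a stood at 2.25 and 2.99, against 1.19, and that of Cdkn2b at -0.06 and 0.37, against -0.96. Cdkn2c stood at 2.17 and 2.76, on either side of 2.63 in double-deleted DN2 cells, and Cdkn2d at 4.69 and 4.88, against 4.42. Against the double-deleted DN2 array itself, mouse 13 and mouse 19 stood 1.31 and 1.83 higher for Cdkn2a, and 1.77 and 2.03 higher for Cdkn2b. The fit of all 14 arrays used instead an additive estimate for double-deleted DN2 cells, from genotype and stage terms over all genotypes. In that fit, Cdkn2a was higher in ETP-ALL by 1.93 ± 0.73 (SE, adjusted p = 0.21 in limma) and Cdkn2b by 2.19 ± 0.58 (adjusted p = 0.0897), so neither passed the test. Cdkn2c differed by -0.03 ± 0.39 (adjusted p = 0.98) and Cdkn2d by 0.36 ± 0.27 (adjusted p = 0.512). Thus 0 of 4 members were called, with 2.36% of all probes called (1.42% higher and 0.939% lower). At an unadjusted p under 0.05 there were 2, Cdkn2a and Cdkn2b. Cdkn2b passed the test when WT DN1 was left out (2.01, adjusted p = 0.0159). The leukemias were alone on slide 4, so slide and leukemia cannot be told apart.

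None of the other measured genes around Cdkn2a and Cdkn2b passed the test as higher than in WT cells. Of the 3 annotated genes on either side of each, Dmrta1, a transcription factor gene, and Zfp352, a zinc finger gene, were the only ones besides the pair itself with a probe, and Mtap, a methionine salvage enzyme and the nearest protein-coding gene before Cdkn2a, was added after values were seen. Mtap was 1.24 ± 0.36 higher in double-deleted (adjusted p = 0.0733), 1.04 ± 0.36 higher in p53-deleted (0.0523) and 0.71 ± 0.36 higher in Ezh2-deleted cells (0.164) than in WT cells (SE, 3 arrays against 3, limma), and none passed. Dmrta1 differed from WT by -0.21 ± 0.55, -0.31 ± 0.55 and 0.21 ± 0.55 in the same order and was well above background on the 4 DN1 arrays alone. Zfp352 was lower, falling by 1.15 ± 0.29 in double-deleted (adjusted p = 0.0487), by 2.75 ± 0.29 in p53-deleted (adjusted p = 0.000164) and by 1.55 ± 0.29 in Ezh2-deleted cells (adjusted p = 0.00411). For p53-deleted and Ezh2-deleted cells, all on slide 2, slide and deletion cannot be told apart against WT.

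**Figure D4:**
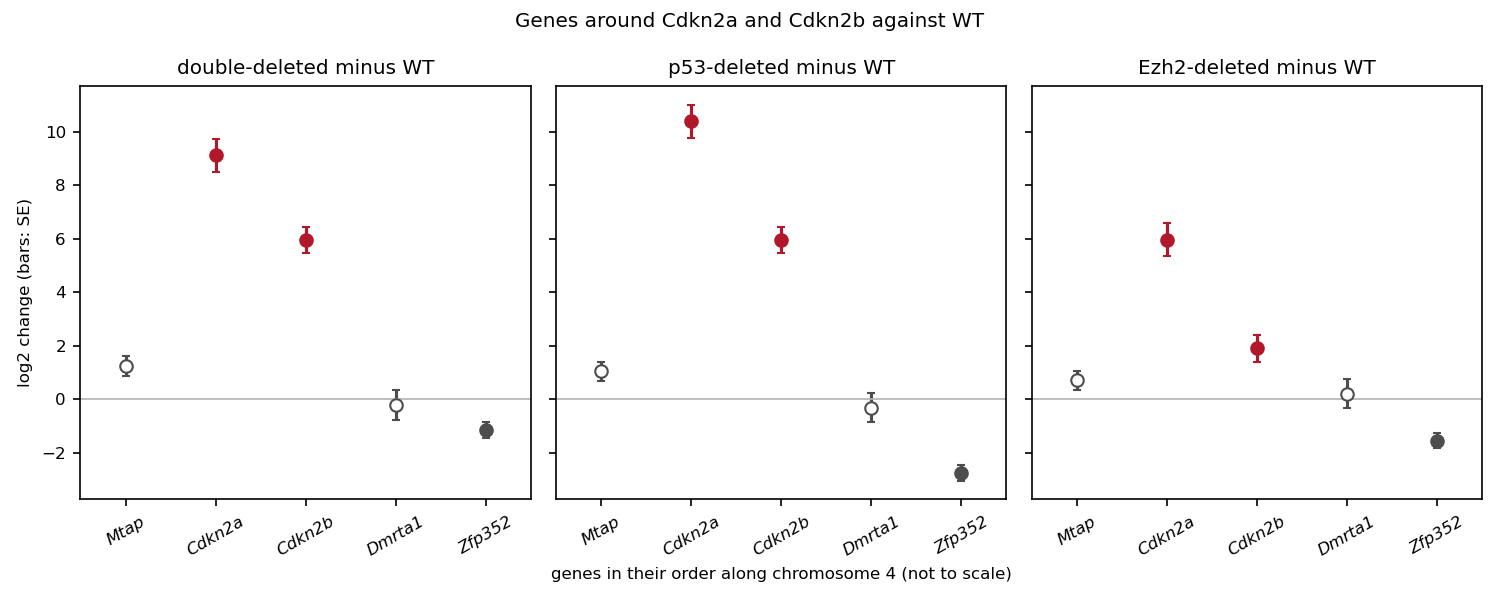
Log2 change (limma estimate, bars are SE) of Mtap, Cdkn2a, Cdkn2b, Dmrta1 and Zfp352, in their order along chromosome 4 and not to scale, in the 3 comparisons with WT; filled points passed an adjusted p of 0.05. Cdkn2a and Cdkn2b lie above 0 in each panel and are the only filled points there that do.

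The genes downstream of INK4 proteins were counted against WT beside the share of all probes called, which was 7.01% in double-deleted, 35.6% in p53-deleted and 33.2% in Ezh2-deleted cells. All p53-deleted and Ezh2-deleted arrays were on slide 2 and all WT arrays on slide 1. For those genotypes against WT, slide and deletion cannot be told apart here or in the gene lists below. Of the 8 genes listed as CDK4, CDK6, D cyclins and the retinoblastoma family, 0 were called in double-deleted, 2 rose in p53-deleted and 2 in Ezh2-deleted cells against WT, and none fell. The median change of the list was 0.24, 0.57 and 0.68, beside -0.11, 0.08 and 0.13 over all probes tested. Rb1, the retinoblastoma gene, rose by 1.15 ± 0.29 in p53-deleted cells (SE, limma, adjusted p = 0.0147), as did Ccnd3, a D cyclin of thymocytes, by 0.82 ± 0.26 (0.0375). Ccnd2 rose by 0.95 ± 0.26 in Ezh2-deleted cells (adjusted p = 0.0207), as did Rbl1, which encodes the related protein p107, by 1.03 ± 0.33 (0.0399). The kinases passed no test: Cdk4 differed from WT by 0.24, 0.30 and 0.69, and Cdk6 by 0.45, -0.02 and -0.43, in double-deleted, p53-deleted and Ezh2-deleted cells, with an SE of 0.34 for Cdk4 and 0.46 for Cdk6.

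Of 18 tested S phase genes that E2F factors drive, 0 were called in double-deleted and p53-deleted cells against WT, and 1, the ribonucleotide reductase gene Rrm2, rose in Ezh2-deleted cells by 1.64 ± 0.53 (SE, limma, adjusted p = 0.0428). The list medians were 0.53, 0.07 and 0.36. Of 8 E2F genes, 0 were called in double-deleted cells. In p53-deleted cells 2 were lower than in WT cells and not well above background, E2f4 at least 17.7-fold and E2f5 at least 2.66-fold. In Ezh2-deleted cells 1 rose and 2 fell: E2f4, a factor of the repressive complexes, was at least 15.1-fold lower, E2f5 fell by 1.29 ± 0.31 (adjusted p = 0.0132) and E2f3 rose by 1.02 ± 0.34 (0.0468). The p53-deleted and Ezh2-deleted arrays were all on slide 2 and the WT arrays on slide 1, so slide and deletion cannot be told apart in these changes.

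On the side of p19ARF and p53, Mdm2, the ubiquitin ligase that ARF binds, differed from WT by -0.02 in double-deleted, 0.07 in p53-deleted and 0.02 in Ezh2-deleted cells, each ± 0.20 (SE, limma, adjusted p between 0.81 and 0.955). Of the 12 genes of this arm, beside the same 7.01%, 35.6% and 33.2% of all probes, 1 was lower and 0 higher in double-deleted cells than in WT cells, that gene being Trp53 itself, which fell by 3.09 ± 0.74 (adjusted p = 0.0434). In p53-deleted cells 4 were lower and none higher: Trp53 at least 19.6-fold, and the p53 targets Cdkn1a, which fell by 0.93 ± 0.32 (adjusted p = 0.0494), Sesn2, by 1.00 ± 0.22 (0.00731), and Phlda3, by 1.20 ± 0.35 (0.0272). In Ezh2-deleted cells 3 rose and 1 fell. Zmat3 rose by 2.76 ± 0.60 (adjusted p = 0.00815), Phlda3 by 1.95 ± 0.35 (0.00352) and Bax, a cell death effector, by 0.92 ± 0.24 (0.0197), while Sesn2 fell by 0.91 ± 0.22 (0.0126). For p53-deleted and Ezh2-deleted cells against WT, slide and deletion cannot be told apart. Phlda3 was also lower in p53-deleted than in Ezh2-deleted cells, on 1 slide, where it fell by 3.15 ± 0.35 (adjusted p = 0.00302).

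Among the CIP/KIP inhibitors, the other family of CDK inhibitors, Cdkn1c (p57) changed in all 3 comparisons with WT. It rose by 3.21 ± 0.23 in double-deleted (adjusted p = 0.000259), 2.59 ± 0.23 in p53-deleted (6.52e-05) and 1.41 ± 0.23 in Ezh2-deleted cells (0.00213) against WT (SE, 3 arrays against 3, limma). On slide 2 it was 1.18 ± 0.23 higher in p53-deleted than in Ezh2-deleted cells (adjusted p = 0.028). Cdkn1b (p27), the last of the 3 genes of this family, fell by 1.00 ± 0.26 in Ezh2-deleted cells (adjusted p = 0.0167). Of 13 tested Polycomb regulators of the INK4-ARF locus, 1 rose and 1 fell in double-deleted, 1 rose and 3 fell in p53-deleted, and 2 rose and 2 fell in Ezh2-deleted cells against WT, where 7.01%, 35.6% and 33.2% of all probes were called. Bmi1, a subunit of Polycomb repressive complex 1 known to repress Cdkn2a, rose by 1.79 ± 0.29 in double-deleted (adjusted p = 0.0114) and 1.16 ± 0.29 in Ezh2-deleted cells (0.0159). Cbx8, a chromobox subunit of that complex, fell by 1.44 ± 0.29 in double-deleted cells (adjusted p = 0.0267) and was at least 12.3-fold lower in p53-deleted and at least 10.5-fold lower in Ezh2-deleted cells than in WT cells. The values of p53-deleted and Ezh2-deleted cells set slide 2 against slide 1, so slide and deletion cannot be told apart in them. Of 10 tested other regulators of the locus, 1 rose in double-deleted, 2 rose and 1 fell in p53-deleted, and 2 rose in Ezh2-deleted cells, beside the same shares of all probes. Id1 rose by 2.06 ± 0.48 in double-deleted cells (adjusted p = 0.04), Ets1, an activator of p16INK4a, rose by 1.1 ± 0.30 in p53-deleted cells (0.0221), where the gene that fell, Twist1, was not well above background in either group, and Myc rose by 0.90 ± 0.27 in Ezh2-deleted cells (0.0331).

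For each member, the named genes with the most similar pattern were taken by Pearson's r to its brighter probe over the 12 non-leukemic arrays, among 12552 candidate genes. These arrays share slides, scaling and genotypes, so r is a description. Nearest to Cdkn2a were 9230102O04Rik (r = 0.98), Ptgfrn (0.97), Reep1 (0.97), Casc1 (0.96) and Cnnm1 (0.96). For Cdkn2b they were Ptgfrn (0.96), Fnip2 (0.96), Grtp1 (0.96), Cdkn1c (0.94) and Slc7a7 (0.94). Ptgfrn, a prostaglandin receptor regulator, was on both lists, with mean levels of -1.54 in double-deleted, -1.13 in p53-deleted and -3.21 in Ezh2-deleted cells, against -4.99 in WT cells. For Cdkn2c they were Nrf1 (0.96), Nek2 (0.94), Ccnd3 (0.93), Fam91a1 (0.93) and Jcad (0.93), and for Cdkn2d Fry (0.92), Igfbp4 (0.91), Lrrc56 (0.91), Reep5 (0.90) and Slc25a30 (0.88).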

How the data were processed

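Spike-ins were added to 20 ng of RNA from the sorted cells, which was amplified and given the dye Cy3, per the labels' protocols. Per the file headers, the authors read the arrays with Feature Extraction 10.7.1.1 on a grid of build mm9. The deposited intensity of each spot is background-subtracted and spatially detrended per the file headers, with no scaling between arrays. The deposited value table, which the authors scaled, holds signal values equal to the processed intensity divided by 1 constant per array, as a comparison with the scanner values showed, and no label names the method.

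For each array, the 75th percentile of log2 processed intensity over non-control spots was subtracted. The 59305 spots were averaged by probe, giving 55681 probes. Probes were tested if well above background on at least 2 of 14 arrays, and 111 with a missing value were left out. 28347 probes had 1 symbol through the accessions of the RefSeq table (GRCm38.p6) and 27334 had none. The files held 2 versions of the probe annotation, which differed in accession for 4407 probes and gave the same 6 member probes. Genotype and stage were additive terms in limma 3.58.1 (R 4.3.3, lmFit and eBayes) on the 12 non-leukemic arrays, with 6 residual degrees of freedom. Leukemia was a further term on all 14 arrays. Adjusted p-values are Benjamini-Hochberg over the 31415 probes of a comparison, and probes under 0.05 were called. All tests are two-sided.

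Where no array of a group was well above background for a gene, its change is a bound ("at least"). For each array of the dimmer group, the larger of the gene's own level and the lowest level that passed the background test was taken, and the brighter group's mean was divided by their mean. Of several probes, the one with the highest mean stands for a gene. Named are all members, fixed key genes and some of the list genes that were called (at most 10 per list and comparison). The counts also include called list genes that are not named. Also named are those of the 3 annotated genes on each side of a member that were tested, and the 5 genes most like each. The members and lists were chosen with earlier results of these data known.

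Alternatives were normexp background correction, quantile normalization, another percentile, other filters on dim probes, 1 probe per gene, the deposited value table, slide as a block, single slides and leaving out each array. Normexp used median signals, since the files hold no mean signal. The number of arrays limits the precision.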

Additional observations from a re-analysis of the deposited data

Results flagged for a closer look

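The change with deletion of Ezh2 differed between p53-deleted and p53-intact cells, by the interaction test in limma, for 3 of 6 member probes. Of all probes tested, 44.7% passed this test, so the count of member probes is near that share. The difference was -7.23 for the brighter probe of Cdkn2a (adjusted p = 0.000251), -3.54 for its second probe (adjusted p = 0.00594) and -1.19 for the second probe of Cdkn2b (adjusted p = 0.0419). The second Cdkn2a probe was not well above background on any WT array, and with that level as a bound its difference is -1.65 or lower. The second Cdkn2b probe was not well above background on any Ezh2-deleted or WT array, so its value has no size that can be read. This contrast is slide 2 against the other slides.

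For Cdkn2c the step from DN2 to DN3 ran in opposite directions in Ezh2-deleted and Ezh2-intact genotypes, a difference that was not tested, with 1 array per genotype and stage. The level in DN3 minus DN2 cells was -0.56 in double-deleted and -0.60 in Ezh2-deleted cells, against 0.66 in p53-deleted and 0.18 in WT cells. The brighter probe of Cdkn2a gave -0.65 in double-deleted and -0.30 in Ezh2-deleted cells, against 0.23 in p53-deleted and 1.83 in WT cells. That WT value lies between 2 arrays that were not well above background and so has no direction, and the second Cdkn2a probe gave -0.52 and -0.19, against 0.38 and -0.34, in the same order. In 18 sets of 4 arrays of 1 stage, no member probe had an array far from the other 3 by Dixon's test.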

How the results depend on the processing

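No paired analysis was possible because the labels number every array replicate 1, so the groups share fewer than 2 replicate numbers. The stages that the genotypes share are a term of the fit. Of 460 values of called member probes under other settings, 430 kept direction and call, 30 lost the call and 0 changed sign. Of 738 values of uncalled probes, 25 passed the test and 48 changed sign, with 0 of these 48 called under either setting.

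The number of members called in Ezh2-deleted minus WT cells, 2, was 1 with the percentile taken over probes well above background on all arrays, and 1 to 3 on leaving out 1 array (1 without Ezh2-deleted DN2, Ezh2-deleted DN3 or WT DN2, 3 without p53-deleted DN2). In double-deleted minus p53-deleted cells, 0 members became 2 (Cdkn2a and Cdkn2d) with normexp. In ETP-ALL, 0 became 2 with normexp, 1 with quantile normalization and 0 to 1 on leaving out 1 array (1 without WT DN1). For the interaction, 1 became 3 with normexp, 2 with the value table, the filter of 6 arrays or quantile normalization, and 1 to 2 on leaving out 1 array (2 without WT DN1, p53-deleted DN1 or p53-deleted DN2).

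The sign changes were these. With normexp, Cdkn2d in p53-deleted minus WT was -0.11, Cdkn2b in double-deleted minus p53-deleted 0.19, and Cdkn2a 0.12 from DN1 to DN2 and -0.056 from DN2 to DN3. With quantile normalization, Cdkn2b in double-deleted minus p53-deleted was 0.0034, its second probe from DN1 to DN2 0.0063, and Cdkn2c in ETP-ALL 0.011. With the percentile over probes above background on all arrays, Cdkn2b in double-deleted minus p53-deleted was 0.040 and Cdkn2c in ETP-ALL 0.030. Within slide 2, the DN1 to DN2 change was 0.75 for Cdkn2a and 0.12 for the second Cdkn2b probe, and the DN2 to DN3 change -0.034 for Cdkn2a, 0.098 for its second probe, 0.14 for Cdkn2b and 0.029 for Cdkn2c. Within slide 1 the DN1 to DN2 change of Cdkn2d was 0.049, and with slide as a block that of the second Cdkn2b probe was 0.015. Leaving out 1 array gave ranges across 0 for Cdkn2d in p53-deleted minus WT (-0.0034 to 0.26) and Ezh2-deleted minus WT (-0.29 to 0.012). In double-deleted minus p53-deleted they did for Cdkn2b (-0.43 to 0.40), its second probe (-0.44 to 0.063) and Cdkn2c (-0.28 to 0.27), and in p53-deleted minus Ezh2-deleted for Cdkn2c (-0.028 to 0.47). From DN1 to DN2 they did for Cdkn2a (-0.73 to 0.40) and the second Cdkn2b probe (-0.23 to 0.035). From DN2 to DN3 they did for Cdkn2a (-0.32 to 0.69), its second probe (-0.48 to 0.16), Cdkn2b (-0.42 to 0.22) and Cdkn2c (-0.32 to 0.086), and in ETP-ALL for Cdkn2c (-0.32 to 0.27).

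Normexp also moved the count of all probes called, to 10670 beside 2203 in double-deleted minus WT, 18835 beside 9406 against Ezh2-deleted, 18374 beside 9851 against p53-deleted, 15991 beside 10417 in Ezh2-deleted minus WT, 386 beside 1204 in p53-deleted minus Ezh2-deleted, 1697 beside 740 in ETP-ALL and 1 beside 8 from DN2 to DN3. Higher calls were then 19.1% beside 51% of calls in double-deleted minus WT, 22.2% beside 46.2% against Ezh2-deleted, 24.4% beside 50.2% against p53-deleted, 70.4% beside 44.8% in p53-deleted minus WT, 75.4% beside 47.5% in Ezh2-deleted minus WT and 23.7% beside 46.1% in the interaction. The percentile over probes above background on all arrays gave 1309 calls and 69% higher in double-deleted minus WT and 58.6% higher against Ezh2-deleted, and shifted the median of all probes by -0.17 in Ezh2-deleted minus WT, 0.17 in double-deleted minus Ezh2-deleted, 0.12 in p53-deleted minus Ezh2-deleted, -0.13 from DN1 to DN2 and 0.22 in the interaction, where quantile normalization shifted it by -0.10. Without a filter, double-deleted minus Ezh2-deleted had 21902 calls. The filter of 6 arrays gave 216 calls beside 411 from DN1 to DN2, where slide 1 alone gave 995 and slide 2 alone 2, and from DN2 to DN3 all settings gave 0 to 22. With slide as a block, double-deleted minus WT had 637 calls, within slide 1 it had 657, and within slide 2 p53-deleted minus Ezh2-deleted had 120. The brighter probes of Cdkn2a and Cdkn2b stayed called in these 3 fits, while the second Cdkn2a probe lost its call within slide 2 (adjusted p = 0.0556 in limma). Leaving out 1 array gave 6785 to 11124 calls in Ezh2-deleted minus WT, 455 to 2253 in double-deleted minus WT, 4572 to 10204 and 5486 to 10413 against Ezh2-deleted and p53-deleted cells, 331 to 1226 in p53-deleted minus Ezh2-deleted, 152 to 3155 from DN1 to DN2 and 118 to 994 in ETP-ALL. The other genotype comparisons, the leukemia comparison and the interaction could not be fitted with slide as a block. The causes were not tested. WT levels of Cdkn2a and Cdkn2b rest on 1 array well above background.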

Other observations

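Some genes next to Cdkn2c and Cdkn2d on the chromosome were higher than in WT cells in p53-deleted and Ezh2-deleted cells, the genotypes of slide 2, so slide and deletion cannot be told apart. Faf1, a neighbour of Cdkn2c, rose by 1.12 ± 0.23 in p53-deleted (adjusted p = 0.00616) and 0.94 ± 0.23 in Ezh2-deleted cells (0.0149) against WT (SE, 3 arrays against 3, limma), and differed by 0.46 ± 0.23 in double-deleted cells (0.246). Beside Cdkn2d, the autophagy protease gene Atg4d rose by 1.20 ± 0.20 in p53-deleted (adjusted p = 0.0022) and 1.09 ± 0.20 in Ezh2-deleted cells (0.00402), and Kri1 by 1.04 ± 0.23 (0.00833) and 0.90 ± 0.23 (0.0166). In double-deleted cells they differed from WT by 0.23 ± 0.20 and 0.03 ± 0.23, without passing the test. The other tested genes beside Cdkn2d were not called in p53-deleted or Ezh2-deleted cells against WT. Slc44a2 differed by -0.10 and 0.41 in this order, and S1pr5, a receptor known in NK cells, by -0.41 and 0.50. Ap1m2 was not well above background in Ezh2-deleted or WT cells. Of all probes tested, 15.9% were called higher in p53-deleted and 15.7% in Ezh2-deleted cells. S1pr5 was lower in DN2 than in DN1 cells (adjusted p = 0.00981) and not well above background in DN2 or DN3 cells.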
